A study of Mus musculus with 2 samples.

Results

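Collagens are extracellular matrix proteins built from 3-chain helices, and each chain has a gene of its own. All gene symbols of the form Col, number, a, number were taken as members, which gave 44 of the 32285 genes counted. They were grouped by the matrix they form into 11 fibrillar chains (types 1, 2, 3, 5, 11, 24 and 27), 9 basement membrane chains (types 4, 7, 15 and 18) and 24 others. Fibrillar collagens form the rope-like fibres of tendon, muscle connective tissue and scar, with types 5 and 11 inside the fibres of types 1, 2 and 3. Type 4 chains build the sheet that wraps every muscle fibre and capillary, and type 6 forms microfibrils beside it. In skeletal muscle, fibroblasts, which include the fibro-adipogenic progenitors that spread after injury, are the main source of fibrillar collagen, while muscle stem cells (satellite cells) and fibres make chains of their niche, of nerve contacts and of the junction with tendon.

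Single nuclei of the tibialis anterior, the muscle at the front of the shin, were sequenced. The mice were males, 16 to 20 weeks of age. All mice had chronic kidney disease and had their femoral artery tied 5 days before. Of the 2 libraries, 1 is labelled AHRfl/fl and 1 AHRmKO, a muscle knockout of the aryl hydrocarbon receptor (Ahr), a transcription factor that binds small molecules. Both carry the same strain label, a cross of the AHRtm3.1Bra/J and Tg(ACTA1-cre/Esr1*)2Kesr/J strains, in which a skeletal actin promoter drives a Cre recombinase that responds to oestrogen receptor ligands. That promoter is active in muscle fibres, so Cre is not expected in the other classes of nuclei, and how many animals went into a library is not stated. With 1 library a group there is no replicate check, and every interval below is a 95% interval of counting error alone.

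The AHRfl/fl library held 19056 barcodes with 2000 or more unique molecular identifiers (UMIs), with a median of 3803.5, and the AHRmKO library 9015, with a median of 3596. Only 43 barcodes occurred in both. The libraries stood apart: 27 of 33 clusters, with 94.7% of all nuclei, drew over 90% of their nuclei from 1 library. Classes were named from marker genes, and collagens were used neither in clustering nor as markers. Of the 33 clusters, 8 stayed unnamed, for markers of several lineages, for median UMIs far above those of the library or, in cluster 24 (4 and 234 nuclei), for mitochondrial genes among the leading ones. They held 2334 AHRfl/fl and 544 AHRmKO nuclei, 12.2% and 6.03%. The named classes keep the suffix "-like" and gave, in AHRfl/fl and AHRmKO, 1269 and 714 fibroblast-like, 134 and 98 adipocyte-like, 300 and 201 endothelial-like, 4070 and 1724 satellite cell-like or myoblast-like, 3432 and 1331 immature myonucleus-like, 490 and 1856 myofibre-like and 6826 and 2492 macrophage-like nuclei. Pericyte-like nuclei numbered 19 and 4. Ahr itself was at 28.7 UMIs per 1000000 UMIs of the class (CPM) in AHRfl/fl and 26 CPM in AHRmKO over myofibre-like and immature nuclei together, but at 8.55 and 31.6 CPM in myofibre-like and 31.3 and 17.5 CPM in immature nuclei alone. The chemistry reads the 3′ end and the floxed exon lies near the 5′ end, so that level does not check the deletion.

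Upstream DNA was available for 35 of the 44 members (RefSeq, GRCm38.p6, the same assembly as mm10), and the stretches shown are those of the members on which the results below turn. Col3a1 is the fibrillar chain with the largest drop between libraries in fibroblast-like nuclei. Col24a1 is a fibrillar chain that stood out in a few muscle clusters and in tenocyte-like nuclei. The type 4 chains lie head to head in pairs, and the starts of Col4a1 and Col4a2 overlap while those of Col4a3 and Col4a4 lie close together. Capitals mark TATAAA (either strand) in Col3a1, CAGCTG, which reads the same on both strands, in Col24a1, and the bases that belong to both genes at the Col4a1 and Col4a2 starts. All are written 5′ to 3′ on the plus strand.
Col3a1, the 250 bases before its start, chr1:45311288-45311537, plus strand: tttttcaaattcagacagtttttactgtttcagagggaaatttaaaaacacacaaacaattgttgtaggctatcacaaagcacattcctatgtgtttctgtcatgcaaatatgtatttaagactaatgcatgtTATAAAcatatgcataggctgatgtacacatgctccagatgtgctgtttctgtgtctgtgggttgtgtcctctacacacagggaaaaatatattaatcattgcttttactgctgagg
Col24a1, the 250 bases before its start, chr3:145292222-145292471, plus strand: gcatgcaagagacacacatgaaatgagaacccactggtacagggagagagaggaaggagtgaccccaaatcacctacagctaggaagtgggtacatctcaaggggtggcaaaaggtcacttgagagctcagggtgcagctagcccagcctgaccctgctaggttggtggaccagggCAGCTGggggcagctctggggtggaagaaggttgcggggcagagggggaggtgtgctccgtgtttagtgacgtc
Col4a4 (minus strand) to Col4a3 (plus strand), the 71 bases between their starts, chr1:82586850-82586920: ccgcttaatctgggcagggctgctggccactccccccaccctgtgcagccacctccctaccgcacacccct
Col4a2 (plus strand) and Col4a1 (minus strand), 30 bases around their starts, chr8:11312801-11312830: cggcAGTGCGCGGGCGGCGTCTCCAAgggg
The Col4a1 and Col4a2 transcripts shared 22 bases at their starts, while 1308 bases lie between the starts of Col4a5 and Col4a6 on chromosome X. The Col3a1, Col24a1 and Col4a4 to Col4a3 stretches hold no annotated exon (GENCODE M21), and of the last 30 bases 22 lie in exons of both genes. TATAAA occurred in the 250-base windows of 13% of 27025 promoters and in 5 of the 35 collagens. CAGCTG occurred in 12.8% of promoters and in 6 of 35 collagens. CCAAT or ATTGG, its form on the other strand, occurred in 34.5% and in 12 of 35. GGGCGG or CCGCCC, likewise, occurred in 32.9% and in 21 of 35. These are counts of letters and say nothing about binding.

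Of the 40 collagens with 100 or more UMIs over all nuclei, 28 had their highest level in the same class in both libraries. For 18 of them that class was the fibroblast-like one: most fibrillar chains (Col1a1, Col1a2, Col3a1, Col5a1, Col5a2, Col11a1 and Col27a1), type 6 chains Col6a2, Col6a3 and Col6a6, network chains Col8a1 and Col8a2, Col12a1, Col14a1 and Col16a1, which decorate fibrils, and Col4a1, Col4a3 and Col23a1. Satellite cell-like nuclei held the highest levels of 5 members, Col4a5, Col4a6, Col18a1, Col19a1 and Col26a1. Adipocyte-like nuclei led for Col5a3 and Col15a1, endothelial-like nuclei for Col28a1 and myofibre-like nuclei for Col7a1, the anchoring fibril chain, and Col22a1, a chain of the junction between muscle and tendon. No member was highest in macrophage-like or immature myonucleus-like nuclei in both libraries. The other 12 changed class between libraries, among them Col24a1, Col25a1 and Col13a1, which are taken up cluster by cluster below. Leads within counting error were counted as leads, and pericyte-like, rarer and unnamed nuclei were not ranked. In the 19 and 4 pericyte-like nuclei, basement membrane chains summed to 2019 CPM (1708 to 2370) and 1847 CPM (1195 to 2726). The fibroblast-like sums were 1796 and 1585 CPM.

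**Figure D1:**
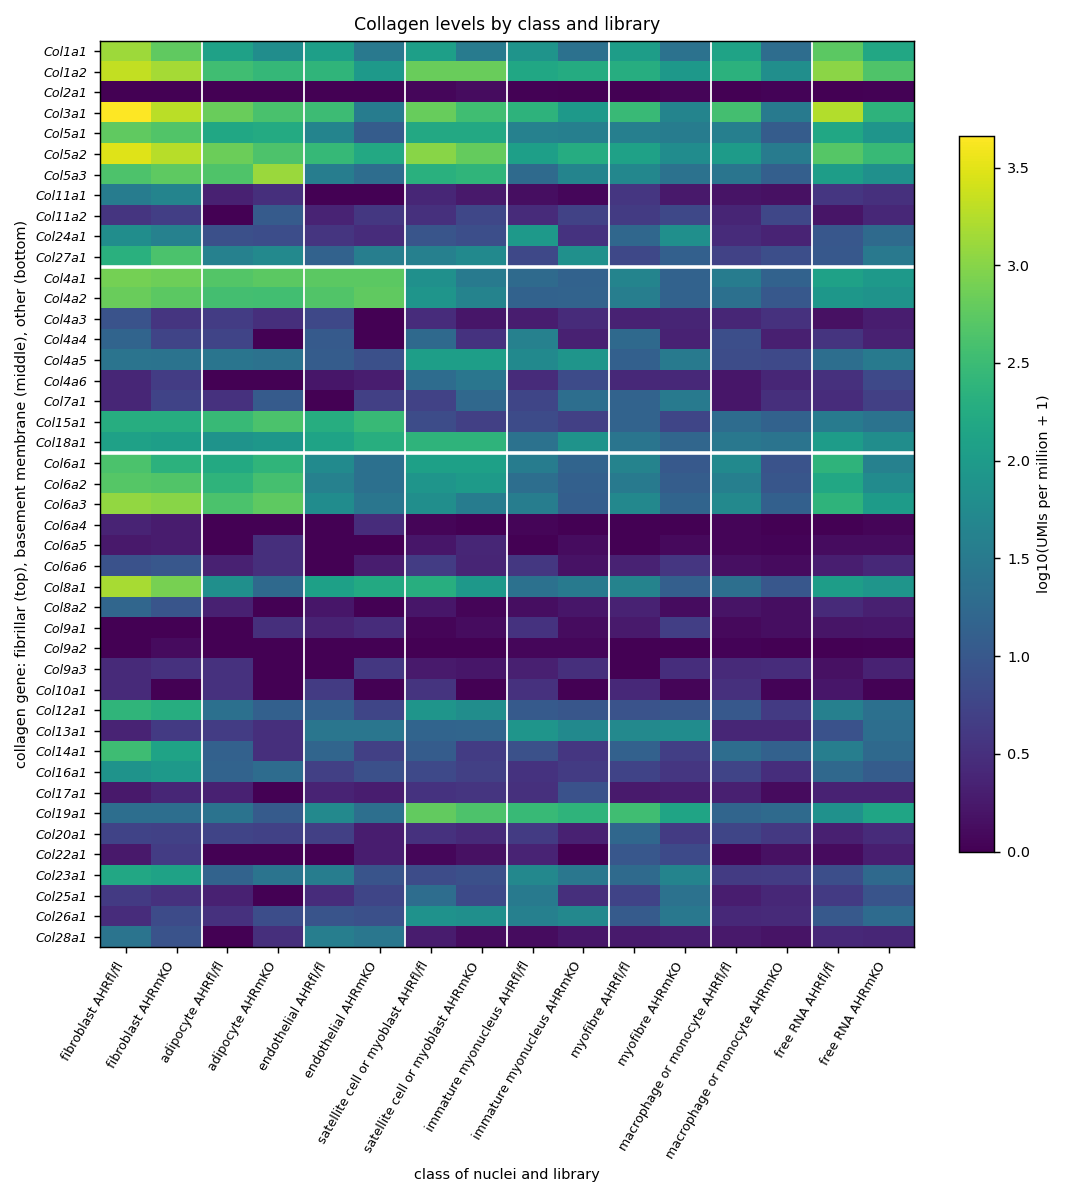
Level of each of the 44 collagen genes (rows, fibrillar at the top, basement membrane in the middle, others at the bottom) in 7 classes of nuclei and in free RNA, for both libraries (columns), as log10(UMIs per 1000000 + 1). Bright cells in the first 2 columns, the fibroblast-like nuclei, include the fibrillar chains Col3a1, Col5a2 and Col1a2 and also Col8a1, Col6a3 and Col4a1. The bright Col19a1 cells lie in the satellite cell-like columns.

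Free RNA, which leaks from broken cells and enters every droplet, carried collagen and is needed to read the lower levels. Barcodes of 200 to under 500 UMIs were taken as its profile, and nuclei with few UMIs among them were not set apart. In AHRmKO these 138289 barcodes held 47739842 UMIs, against 43740909 in the barcodes kept as nuclei. Fibrillar chains summed to 4085 CPM in AHRfl/fl and 1328 CPM in AHRmKO in this profile. From muscle genes in macrophage-like and endothelial-like nuclei, that profile was estimated to make up 18% of UMIs in AHRfl/fl and 13.8% in AHRmKO. With barcodes of at most 100 UMIs as the profile the estimates were 30.3% and 9.04%, so each level given below as estimated from free RNA depends on that choice. Macrophages, which are not known as a main source of fibrillar collagen, gave a yardstick. Their fibrillar sum was 896 CPM (884 to 909) in AHRfl/fl and 181 CPM (174 to 189) in AHRmKO. In AHRfl/fl, 17 of the 24 collagens with 50 or more UMIs in macrophage-like nuclei stood within 1.5-fold of a common ratio to the free profile, 0.25, and in AHRmKO 14 of 19 stood within 1.5-fold of 0.140. Col14a1 and Col15a1 lay above that ratio in both libraries, as did Col27a1. The common ratio was above the 18% share estimated for AHRfl/fl and close to the 13.8% for AHRmKO. Of the members with 20 or more UMIs, 17 of 35 were lower by log2 1 or more and 2 higher in AHRmKO macrophage-like nuclei, against 18.8% and 3.01% of all genes tested there. Free RNA itself was lower in AHRmKO for some of these genes, with Col3a1 at 1713 and 232 CPM, Col6a1 at 241 and 39.99 CPM and Col1a1 at 552 and 153 CPM. For others it differed little, with Col4a2 at 86.8 and 74.5 CPM and Col17a1 at 1.21 and 1.24 CPM.

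The sum of the fibrillar chains was highest in fibroblast-like nuclei of both libraries and was lower there in the AHRmKO library. Single chains did not all follow the sum. Col5a3 stood highest in adipocyte-like nuclei of both libraries. Col24a1 stood highest in immature myonucleus-like nuclei in AHRfl/fl and in myofibre-like nuclei in AHRmKO. Of the 10 fibrillar chains tested in fibroblast-like nuclei, 4 had a log2 ratio above 0. The fibrillar sum there was 12375 CPM (12281 to 12470) in AHRfl/fl and 7366 CPM (7275 to 7458) in AHRmKO, a log2 ratio of -0.75. Satellite cell-like nuclei had 2884 and 2137 CPM and adipocyte-like nuclei 2461 and 2712 CPM, so the former came next in AHRfl/fl and the latter in AHRmKO. Endothelial-like nuclei had 1068 and 388 CPM, immature myonucleus-like nuclei 733 and 634 CPM and myofibre-like nuclei 833 and 355 CPM, where free RNA alone would give 733 and 184 CPM by the estimate above. That estimate used macrophage-like and endothelial-like nuclei, and the free share in other classes need not be the same. In immature nuclei of AHRfl/fl the sum equals the estimate, yet Col24a1 was at 94.5 CPM there and 8.98 CPM in free RNA. Fibroblast-like nuclei, 6.66% and 7.92% of nuclei, held 32.2% of all fibrillar UMIs in AHRfl/fl and 43.4% in AHRmKO, satellite cell-like nuclei 24.7% and 32.5%. The unnamed clusters held 23% and 5.30%, so the shares of the named classes depend on which clusters were left unnamed. The median mitochondrial share of UMIs was higher in AHRmKO, at 0.793% and 2.98% in fibroblast-like, 1.19% and 5.24% in endothelial-like, 0.729% and 2.402% in adipocyte-like and 1.89% and 3.12% in satellite cell-like nuclei. With nuclei of at most 5% the fibrillar log2 ratio of fibroblast-like nuclei was -0.74. In these sums, fewer transcripts of a gene in each nucleus and fewer nuclei that use it cannot be told apart.

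**Figure D2:**
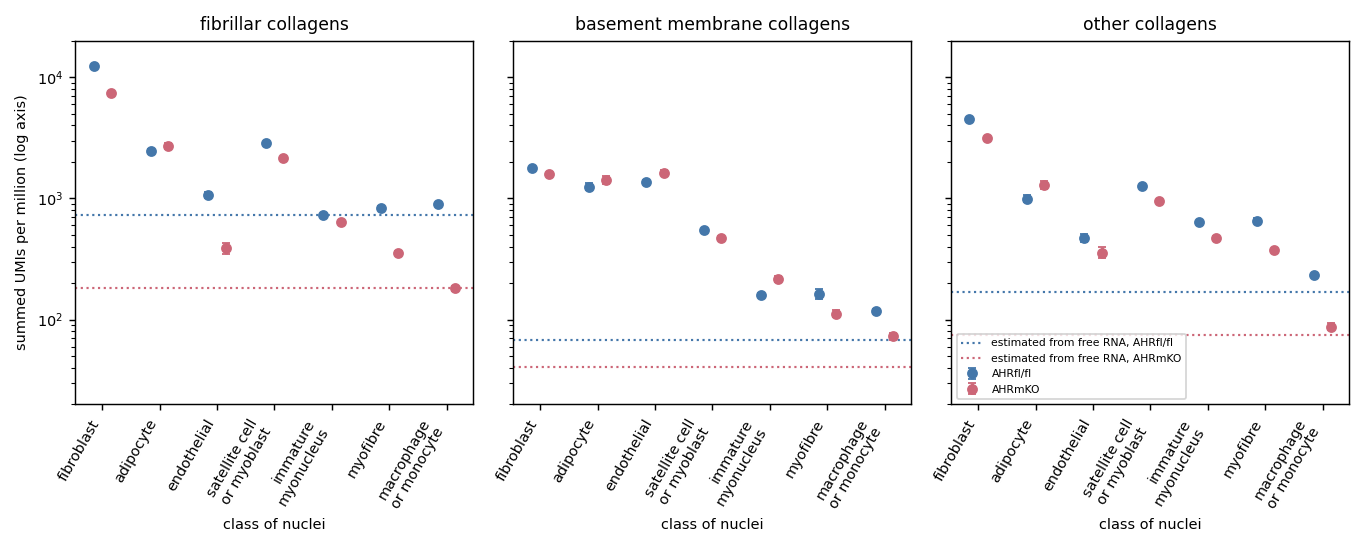
Summed level of fibrillar, basement membrane and other collagens (UMIs per 1000000, log axis) in 7 classes of nuclei. Points are the libraries AHRfl/fl (blue) and AHRmKO (red) with 95% counting intervals, mostly smaller than the points, and dotted lines give the level estimated from free RNA, which the fibrillar sum of macrophage-like nuclei (896 and 181 CPM) lies close to and that of fibroblast-like nuclei exceeds.

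In fibroblast-like nuclei, 10 of the 11 fibrillar chains had 20 or more UMIs, and of these Col1a1 and Col3a1 were lower and Col27a1 higher in AHRmKO by log2 1 or more, beside 15.2% and 6.21% of all genes tested. Col3a1, the type 3 chain abundant in early scar, was at 4571 CPM in AHRfl/fl and 1921 CPM in AHRmKO (log2 ratio -1.25, -1.29 to -1.21). Col1a1 and Col1a2, the chains of type 1 collagen, went apart: Col1a1 from 1348 to 592 CPM (log2 ratio -1.19) and Col1a2 from 2074 to 1459 CPM (-0.51). Col5a2, which joins type 1 fibres, was at 3055 and 1857 CPM (-0.72), whereas its partner Col5a1 was at 587 and 461 CPM (-0.35). Col5a3 was at 432 and 568 CPM (0.39), and Col27a1, a fibrillar chain known from cartilage, at 211 CPM (198 to 223) and 422 CPM (400 to 444), a log2 ratio of 1.001. The chains of 1 fibre type thus did not move by a common factor. Col11a1 was at 33.5 and 43.7 CPM and Col24a1 at 60.7 and 39.0 CPM, and most Col11a1 lay in a small group of nuclei described below.

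Basement membrane chains of fibroblast-like nuclei summed to 1796 CPM in AHRfl/fl and 1585 CPM in AHRmKO (log2 ratio -0.18), a small difference whose direction changed with the minimum of UMIs (0.031 with 1000 and 0.00063 with 4000) and with the unnamed clusters led by fibroblast markers included (0.17). Col4a1 and Col4a2, the chains of the common type 4 helix, were at 781 and 701 CPM and at 655 and 541 CPM. Col15a1 stood at 189 and 192 CPM and Col18a1, whose end fragment is endostatin, at 122 and 111 CPM, with intervals that overlapped. Among the scarce chains, Col4a3 was at 7.56 and 2.64 CPM and its neighbour Col4a4 at 14.2 and 4.70 CPM.

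Among the other chains of fibroblast-like nuclei, whose sum was 4506 and 3152 CPM (log2 ratio -0.52), the FACIT chain Col14a1, which sits on fibril surfaces, was at 336 CPM (321 to 352) and 132 CPM (120 to 145), a log2 ratio of -1.34. Col8a1, a chain of short networks, was at 1532 and 819 CPM (-0.90). The 3 main type 6 chains did not move together: Col6a1 was at 422 and 222 CPM (-0.92), Col6a2 at 500 and 468 CPM and Col6a3 at 1148 and 1029 CPM. Col28a1, known from Schwann cells of nerve, was at 24.8 and 7.63 CPM (-1.63), in a class whose 7 Schwann markers summed to 832 and 685 CPM. Col16a1 was at 75.4 and 94.5 CPM, and Col12a1, a chain of stretched tissue, at 250 and 190 CPM.

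Over all 34 members with 20 or more UMIs in fibroblast-like nuclei, 3 were higher by log2 1 or more (Col7a1, Col26a1 and Col27a1) and 6 lower (Col1a1, Col3a1, Col4a3, Col4a4, Col14a1 and Col28a1). Of all 13967 genes tested there, 6.21% were higher and 15.2% lower, so the share of members called lower is near that of all genes tested. By length of the gene on the genome, 2 of 9 members and 1776 of 8911 genes under 40 kb were lower. From 40 to under 100 kb it was 0 of 3 and 199 of 2929, and at 100 kb or more 4 of 22 and 146 of 2120. The background thus differed with gene length. The members' median log2 ratio was -0.22 beside -0.02 for all genes tested. Fibroblast markers were themselves lower, with a sum over 12 genes of 6776 CPM in AHRfl/fl and 4853 CPM in AHRmKO, macrophage markers summed to 1300 and 636 CPM and those of cycling cells to 355 and 673 CPM. Their part in the collagen levels was not tested. The fibroblast-like nuclei come from cluster 6 in AHRfl/fl (1260 of 1269) and from cluster 16 in AHRmKO (683 of 714), so library and cluster cannot be told apart. Left out of the class were 2 mixed clusters led by fibroblast markers, with 506 AHRfl/fl and 15 AHRmKO nuclei, and with them the fibrillar log2 ratio was -0.38 and the AHRfl/fl share of fibrillar UMIs 45.7%. Included in the same way, they brought Col3a1 to -0.85 and Col1a1 to -0.83, short of log2 1, and Col27a1 to 1.33. Col1a1 also lost its call with a minimum of 1000 UMIs (-0.84), with nuclei thinned (-0.97) and as a mean over nuclei (-0.98). Col27a1 lies at the threshold and lost its call under 4 alternatives, the lowest at 0.98 with collagens kept in clustering.

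**Figure D3:**
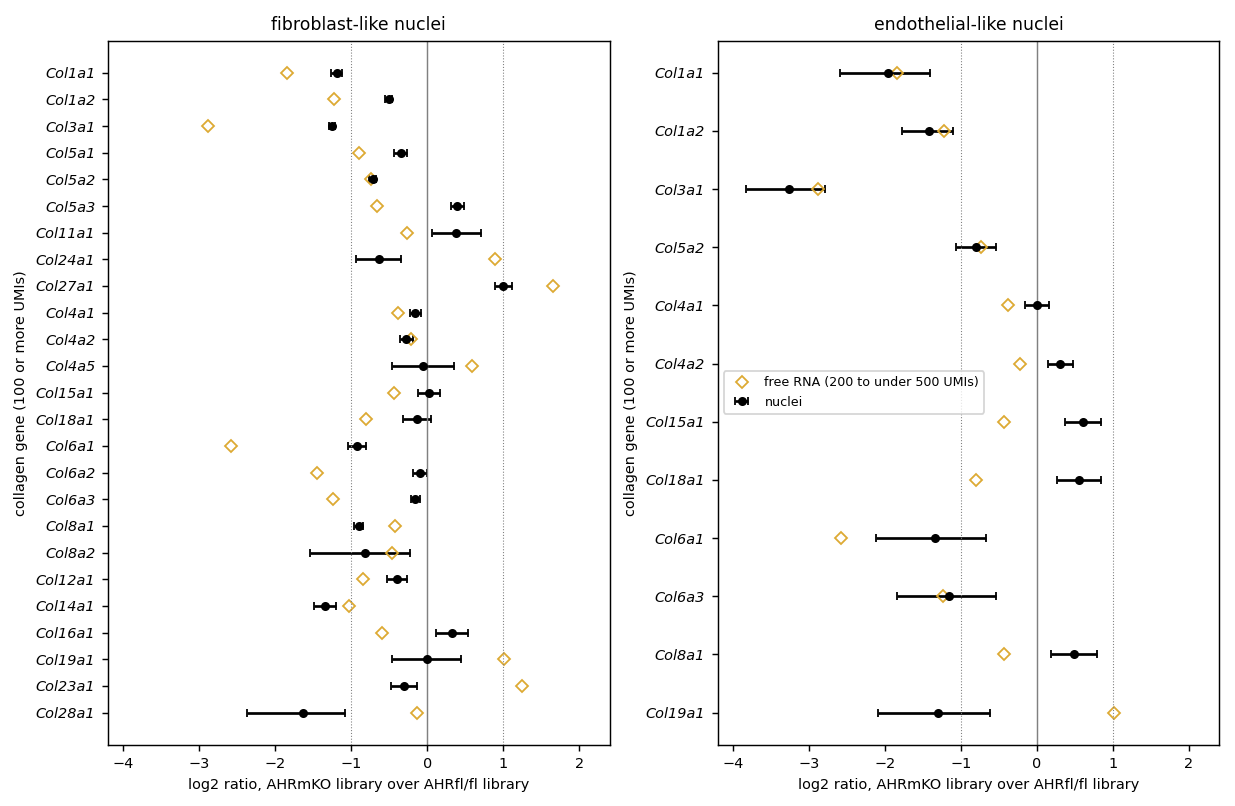
Log2 ratio of the AHRmKO over the AHRfl/fl library (0.5 CPM added to both) for collagens with 100 or more UMIs in fibroblast-like (left) and endothelial-like (right) nuclei. Black points with bars are the nuclei with 95% counting intervals and open diamonds the same ratio in free RNA. In endothelial-like nuclei the fibrillar points sit on or near their diamonds. Among others, Col4a1, Col4a2, Col15a1, Col18a1, Col8a1 and Col6a1 lie to the right of theirs, and Col19a1 to the left.

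The genes that fold, trim and bind collagen were counted as pathway lists in the same nuclei. Of 18 genes for chain modification and folding, 3 were lower and none higher: Serpinh1, the collagen chaperone, at 207 and 69.6 CPM, Ppib, which helps the helix fold, at 198 and 39.9 CPM, and P4hb, a subunit of prolyl 4-hydroxylase, at 140 and 48.4 CPM. Of 12 tested genes for trimming and cross-linking, 1 was higher and 3 lower. Bmp1, which removes the end of fibrillar procollagens, was at 239 and 523 CPM, and the cross-linking enzyme Lox at 154 and 36.1 CPM. None of 11 collagen receptors was called in either direction, with a median log2 ratio of 0.07. Of 11 basement membrane partners only Sparc, a collagen-binding protein, was called, at 1031 and 272 CPM. These counts stand beside the same background of 6.21% higher and 15.2% lower. The genes named here were also called in other classes. Serpinh1 had a log2 ratio of -3.53 in macrophage-like, -1.40 in endothelial-like and -1.04 in satellite cell-like nuclei, but 0.00086 in immature nuclei. Ppib was at -2.96, -1.65, -1.96 and -0.73 in the same classes. Lox was at -2.61 in macrophage-like and -1.88 in satellite cell-like nuclei. Bmp1 was at 1.25 in satellite cell-like but -0.12 in macrophage-like nuclei.

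Within each library the fibroblast-like nuclei were divided again, without collagens, into 6 sub-clusters. A sub-cluster led in part by Mkx, a tendon transcription factor, and carrying 5 of 7 tenocyte markers at least 2-fold above the other sub-clusters' median, held 41 nuclei in AHRfl/fl and 19 in AHRmKO. The 7 cycling markers were also at least 2-fold above the other sub-clusters' median in it, with sums of 973 and 1032 CPM. Thbs4, a tendon matrix gene, was at 1854 and 1556 CPM in it. Col11a1 was at 838 CPM (704 to 991) there in AHRfl/fl and at most 15.8 CPM in the other 5 sub-clusters. In AHRmKO it was at 706 CPM (590 to 837) there and at most 14.7 CPM elsewhere. Col24a1 was also highest there, at 269 and 262 CPM against at most 83.2 CPM in the others, but these nuclei held only 44 of its 321 UMIs in AHRfl/fl and 49 of 133 in AHRmKO. Col12a1 was at 557 and 1299 CPM in them, while they held 137 of the 177 Col11a1 UMIs of the class in AHRfl/fl and 132 of 149 in AHRmKO.

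A second sub-cluster present in both libraries had Gucy1a1, a guanylate cyclase subunit, among its leading genes and held 207 and 95 nuclei. It carried Col15a1 at 398 CPM (354 to 445) and 434 CPM (380 to 493), the highest of any sub-cluster in its library, and Col8a1 at 2661 and 2160 CPM. Col8a1 was lowest, among sub-clusters without macrophage markers, in nuclei with Pi16, a marker of fibroblasts around vessels, among their leading genes. It was at 459 CPM there in AHRfl/fl (418 nuclei) and 46.3 CPM in AHRmKO (33 nuclei). The AHRmKO group had only 172957 UMIs of all genes, so its level rests on few Col8a1 UMIs. Fibroblast markers summed to 7268 CPM in the first group and 10326 CPM in the second. Sub-clusters were formed in each library alone, so these groups need not hold the same kind of nuclei. In AHRfl/fl a group with Tnc and cell cycle genes among its leading genes (141 nuclei) had Col8a1 at 3426 CPM and Col12a1 at 703 CPM. Col3a1 varied less over these groups: from 3627 to 5916 CPM in AHRfl/fl and, outside the macrophage-marker group, from 1840 to 2486 CPM in AHRmKO, so that no AHRmKO sub-cluster reached the lowest AHRfl/fl one. Sub-clusters of 1 library share its sample and its free RNA, so they are not separate checks of that difference. Sub-cluster 6 of AHRfl/fl (20 nuclei) and 4 of AHRmKO (53 nuclei) carried 12 and 13 of the 13 macrophage markers 2-fold above the other sub-clusters' median. Without the 16 and 15 fibroblast-like nuclei richest in those markers, the fibrillar log2 ratio was -0.73.

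**Figure D4:**
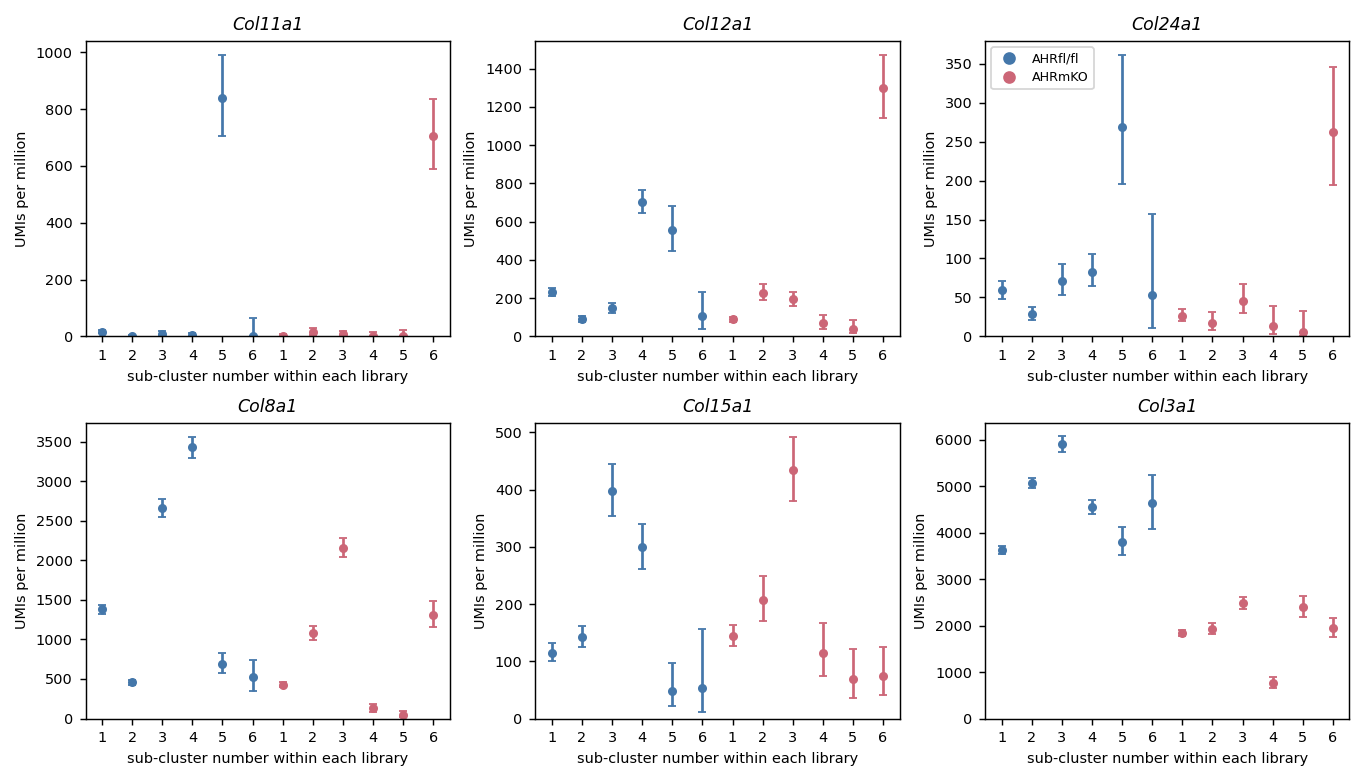
Levels of 6 collagens (UMIs per 1000000, 95% counting intervals) in the 6 sub-clusters of fibroblast-like nuclei of each library, AHRfl/fl in blue and AHRmKO in red; sub-clusters were numbered separately in each library. Col11a1 and Col24a1 stand out in sub-cluster 5 of AHRfl/fl and 6 of AHRmKO, and all AHRmKO points of Col3a1 lie below the AHRfl/fl points.

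Basement membrane chains were the largest of the 3 collagen groups in endothelial-like nuclei of both libraries. They stood at 1368 CPM beside 1068 CPM of fibrillar chains in AHRfl/fl, and at 1630 beside 388 CPM in AHRmKO. Col4a1 was at 546 CPM (510 to 585) and 548 CPM (504 to 596), a log2 ratio of 0.01, and Col4a2 at 469 and 581 CPM (0.31). Col15a1, which links basement membrane to the matrix beneath it, was at 193 and 293 CPM (0.60) and Col18a1 at 133 and 195 CPM (0.55). The basement membrane sum was 1368 CPM in AHRfl/fl and 1630 CPM in AHRmKO, a log2 ratio of 0.25, yet it turned to -0.15 as a mean over nuclei and to -0.10 with every nucleus thinned to 2000 UMIs. All these nuclei lie in cluster 20, shared by both libraries.

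The fibrillar sum of endothelial-like nuclei was lower in AHRmKO, as it was in free RNA, while the fibrillar chain Col27a1 was higher in both. Col3a1 was at 326 CPM in AHRfl/fl and 33.4 CPM in AHRmKO, where free RNA alone was estimated to give 308 and 32.2 CPM. Col1a1 was at 116 and 29.4 CPM against 99.0 and 21.2 CPM from free RNA. Col5a2, at 280 and 161 CPM, exceeded its estimate of 88.6 and 41.0 CPM in both. Of 22 members with 20 or more UMIs, 10 were lower and 1, Col27a1 at 13.1 and 36.3 CPM, was higher, beside 18.7% and 4.9% of all genes. Besides Col1a1, Col1a2 and Col3a1, those lower with 100 or more UMIs were Col6a1 at 55.6 and 21.6 CPM, Col6a3 at 59.5 and 26.5 CPM and Col19a1 at 51.6 and 20.6 CPM. The 13 macrophage markers in these nuclei summed to 3353 and 798 CPM, so markers of another class moved in the same direction, and their part was not tested. After the profile of barcodes with at most 100 UMIs was subtracted, the ratios of Col1a1, Col1a2, Col6a1 and Col6a3 turned positive. The log2 ratio of Col3a1 went the other way, from -3.27 to -6.40. The ratio of Col19a1 was -0.20 with Scrublet doublets left out and -0.28 as a mean over nuclei, which ends its call. With the profile of 200 to under 500 UMIs subtracted it was -4.72. In that profile Col19a1 was higher in AHRmKO, at 70.1 and 141.6 CPM. Subtracting 13.8% of the latter left little of the 20.6 CPM in AHRmKO nuclei, so -4.72 rests on a level near 0.

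In adipocyte-like nuclei, all from shared cluster 25, 1 member with 100 or more UMIs was called. Col5a3, a type 5 chain, was at 447 CPM (404 to 494) in AHRfl/fl and 1285 CPM (1186 to 1391) in AHRmKO, a log2 ratio of 1.52 (1.34 to 1.71). Over the alternatives tried, its ratio ranged from 1.37 to 1.64. In the same nuclei Col5a2 was at 691 and 439 CPM and Col3a1 at 663 and 410 CPM, and Col5a1 at 148 and 172 CPM had overlapping intervals. Type 6 chains Col6a1 at 165 and 248, Col6a2 at 236 and 383 and Col6a3 at 424 and 557 CPM were not called, nor was Col15a1 at 291 and 422 CPM. Of 20 members tested, 1 was called higher and 2 (Col8a1 and Col19a1) lower, beside 9.26% and 15.7% of all genes. The adipocyte markers summed to 4474 and 5844 CPM and the macrophage markers to 2956 and 865 CPM. With 134 and 98 nuclei, these levels rest on few nuclei.

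Satellite cell-like nuclei held several chains at higher levels than fibroblast-like nuclei did. Col19a1, a fibril-associated chain present in developing muscle, was at 594 CPM (582 to 605) and 440 CPM (427 to 454), against 20.0 CPM in fibroblast-like nuclei of both libraries. Col4a5 and Col4a6, partner chains of a second type 4 network, were at 112 and 111 CPM and at 18.8 and 26.3 CPM. Col18a1 was at 235 and 240 CPM and Col26a1 at 72.3 and 65.1 CPM. Type 5 collagen is known as part of the satellite cell niche. Col5a1 was at 163 and 161 CPM, Col5a2 at 1034 and 631 CPM and Col5a3 at 208 and 245 CPM. Col1a2 was at 673 and 660 CPM, above its free RNA estimate of 188 and 61.9 CPM, whereas Col1a1 was at 115 and 32.8 CPM, close to its estimate of 99.0 and 21.2 CPM.

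Between libraries, 2 of 37 members tested in satellite cell-like nuclei were higher in AHRmKO and 9 lower, beside 4.88% and 17.1% of all genes. These nuclei lie almost wholly in clusters 3, 8 and 10 in AHRfl/fl and in clusters 11 and 13 in AHRmKO, so library and cluster cannot be told apart. Col7a1 was at 4.19 CPM (3.29 to 5.27) and 16.3 CPM (13.8 to 19.2), a log2 ratio of 1.84. Lower were Col8a1 at 198 and 88.7 CPM (-1.15), Col4a1 at 68.3 and 30.2 CPM (-1.16), Col25a1 at 19.6 and 5.68 CPM (-1.71) and Col4a4 at 17.1 and 2.38 CPM (-2.61). With the profile of barcodes with at most 100 UMIs subtracted, Col4a1 was at -0.39 and Col8a1 at -0.97, so both calls were lost, and Col1a1 (5.03) and Col14a1 (0.30) changed direction. Col14a1 was at 10.7 and 3.52 CPM, where free RNA was estimated to give 6.35 and 2.36 CPM. By cluster, Col4a4 was at 12.9 to 20.0 CPM in the AHRfl/fl clusters and at 2.49 and 0.988 CPM in those of AHRmKO, and Col7a1 at 1.97 to 5.52 CPM and at 16.8 and 15.1 CPM. Col25a1 was high in cluster 3 alone, at 37.7 CPM, and its 1.77 CPM in cluster 10 lay below both AHRmKO clusters, at 4.02 and 4.94 CPM. Col4a4 was lower and Col7a1 higher in AHRmKO in every class tested for both. All these classes drew most of their nuclei from different clusters in each library. In the shared endothelial-like and adipocyte-like clusters both genes had fewer than 20 UMIs. Col4a4 was at 39.3 and 1.14 CPM in immature, 16.7 and 1.204 CPM in myofibre-like and 6.66 and 1.08 CPM in macrophage-like nuclei, above its free RNA estimates of 0.455 and 0.162 CPM in all of them. Col7a1 was at 4.90 and 20.3 CPM in immature, 13.4 and 30.8 CPM in myofibre-like and 0.688 and 2.15 CPM in macrophage-like nuclei.

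In the muscle lineage the names immature and myofibre fell on different clusters in each library, so single genes are described here by cluster, and differences between libraries within these names cannot be told apart from differences between clusters. In AHRfl/fl, cluster 1 held 2350 immature myonucleus-like nuclei with the embryonic myosin Myh3 at 1965 CPM, and in AHRmKO cluster 7 held 1185 nuclei called myofibre-like with Myh3 at 4197 CPM and the adult myosin Myh4 at 1064 CPM. Col24a1 was at 128 CPM (122 to 134) in the first and 84.7 CPM (77.9 to 92.0) in the second, and at most 35.9 CPM in clusters 3, 5, 8 to 11, 13, 17 and 19. Col13a1, a membrane collagen of the contact between nerve and muscle, followed a like pattern at 85.2 and 76.5 CPM, with 67.9 CPM in cluster 9, another immature cluster of AHRfl/fl. Col19a1 was at 392 to 632 CPM in the satellite cell-like clusters and at 32.7 CPM in cluster 17, 606 AHRmKO nuclei with Myh4 at 2924 CPM. In cluster 19, where myofibre-like nuclei of both libraries met (438 and 65), Col19a1 was at 367 and 223 CPM and Col7a1 at 13.8 and 63.8 CPM. Cluster 17 also had Col7a1 at 60.3 CPM, against 15.1 and 16.8 CPM in the AHRmKO satellite cell-like clusters.

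All collagens together summed to 1651 CPM in myofibre-like nuclei of AHRfl/fl and 840 CPM in those of AHRmKO, a log2 ratio of -0.97. Over myofibre-like and immature nuclei as 1 class the ratio was -0.58. For myofibre-like nuclei alone it was 0.32 after the profile of barcodes with at most 100 UMIs had been subtracted, so its direction depends on how free RNA is treated. Of the members tested in myofibre-like nuclei, 8 of 32 were higher and 16 lower, beside 16% and 18.9% of all genes, with the same limit of different clusters. In immature nuclei 7 of 37 were higher and 13 lower, beside 15.4% and 20.6%. The other 12 members had fewer than 20 UMIs in the myofibre-like class over both libraries.

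**Figure D5:**
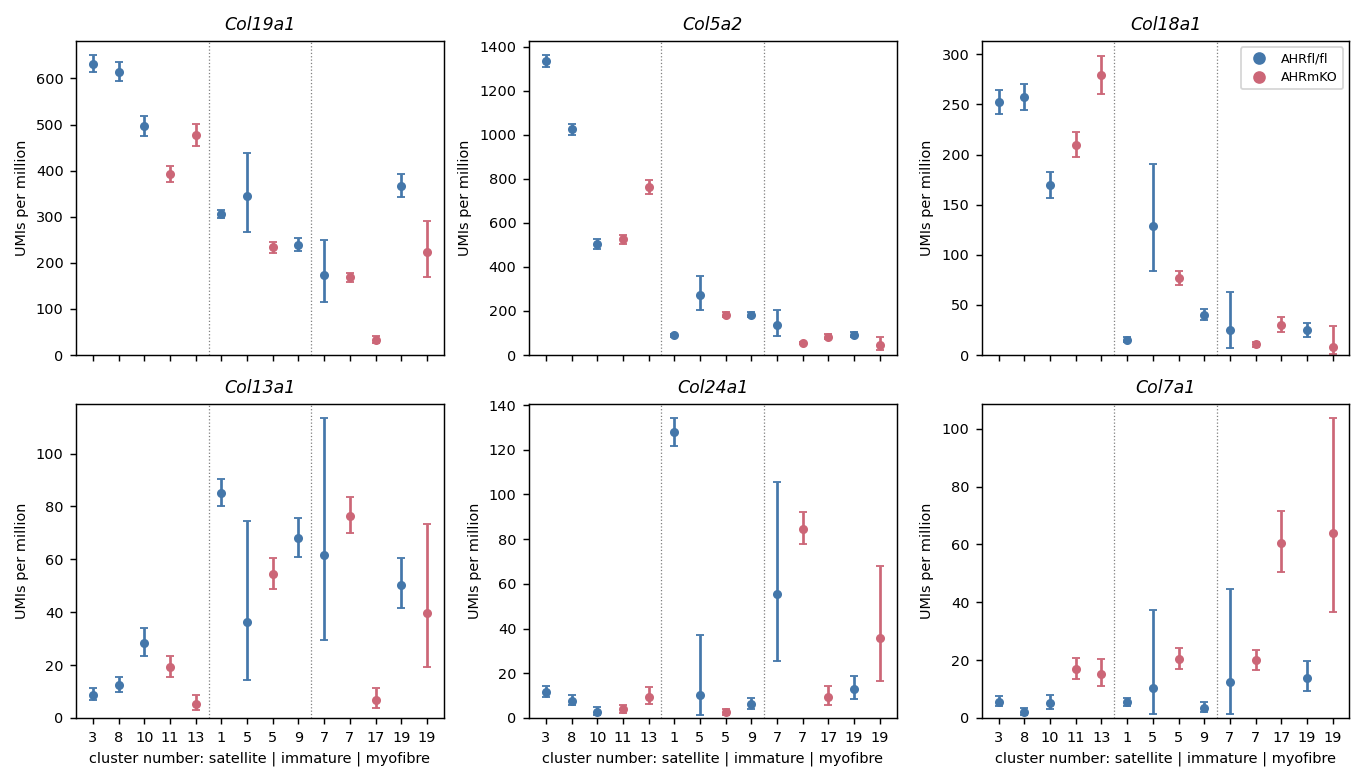
Levels of 6 collagens (UMIs per 1000000, 95% counting intervals) in clusters of the muscle lineage with 40 or more nuclei of a library, AHRfl/fl in blue and AHRmKO in red; dotted lines part satellite cell-like, immature and myofibre-like clusters. Col19a1, Col5a2 and Col18a1 stand higher in the satellite cell-like clusters, Col13a1 and Col24a1 in clusters 1 and 7, and Col7a1 in clusters 17 and 19 of AHRmKO.

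Some muscle collagens lay in a handful of nuclei. Col22a1 had no UMI in 3892 of 3922 myofibre-like or immature nuclei of AHRfl/fl and 3167 of 3187 of AHRmKO, while 3 nuclei of each library, chosen for 3 or more UMIs, held 17 of 47 and 30 of 51 of its UMIs there. Intervals for nuclei chosen in this way, here and below, pool their UMIs and do not measure spread between nuclei. The nuclei compared were pooled over the myofibre-like and immature classes, so differences cannot be told apart from those between classes or clusters. Of 5 other genes listed for the muscle-tendon junction, 3 had intervals in the Col22a1-rich nuclei that lay above their level in nuclei without Col22a1, in both libraries. Slc24a2, an ion exchanger, was at 1067 CPM (568 to 1824) in them and 0.480 CPM in nuclei without Col22a1 in AHRfl/fl, and at 241 CPM (65.7 to 617) and 1.39 CPM in AHRmKO. Adamts20, a matrix protease, was at 656 and 32.3 CPM in AHRfl/fl and at 482 and 23.2 CPM in AHRmKO. Tigd4 had 3 UMIs in those nuclei and 1 in all nuclei without Col22a1 in AHRfl/fl, and 9 and 3 in AHRmKO. For the other two the intervals held that level: Ankrd1 was at 410 CPM (133 to 958) and 298 CPM in AHRfl/fl and at 181 CPM (37.3 to 528) and 310 CPM in AHRmKO, and Fras1 at 328 and 209 CPM and at 301 and 144 CPM. Of 6 genes of the nerve contact, Musk had 1 UMI in those nuclei of each library. The others had none, which at this depth allows up to 303 and 222 CPM. In AHRfl/fl nuclei without Col22a1, Chrna1 was at 373 CPM, above that limit, while Chrne, Colq, Etv5 and Ufsp1 were below it. Col25a1, a membrane collagen that motor axons need to grow into muscle, was likewise uneven. In AHRfl/fl, 64 nuclei with 3 or more UMIs held 408 of its 585 UMIs, and in AHRmKO 24 nuclei held 126 of 221. Chrna1 was at 434 CPM in those 64 nuclei and 372 CPM in nuclei without Col25a1, and at 282 and 198 CPM in AHRmKO. Colq was at 39.7 and 50.5 CPM in AHRfl/fl and at 106 and 29.995 CPM in AHRmKO, and in AHRfl/fl its interval with Col25a1 (22.7 to 64.5 CPM) held the level without it. Musk, at 444 and 423 CPM in AHRfl/fl and 263 and 210 CPM in AHRmKO, and Etv5 had intervals that held the level without Col25a1. Of the muscle-tendon list, Fras1 was higher with Col25a1 in both libraries, at 335 CPM (281 to 396) and 205 CPM in AHRfl/fl and at 402 CPM (322 to 495) and 138 CPM in AHRmKO. Adamts20 was at 42.2 and 31.9 CPM in AHRfl/fl and at 157 and 22.1 CPM in AHRmKO. Ankrd1 went the other way, at 243 CPM (197 to 296) and 300.5 CPM in AHRfl/fl and at 180 CPM (128 to 246) and 311 CPM in AHRmKO. Slc24a2 had no UMI in the Col25a1-rich nuclei of either library. Over whole classes of AHRfl/fl, Fras1 was at 233 CPM in immature and 33.4 CPM in myofibre-like nuclei. Ankrd1 was there at 239 and 734 CPM. In AHRmKO they were at 52.9 and 213 CPM and at 343 and 291 CPM. Col25a1 itself was highest in immature nuclei of AHRfl/fl (30.9 CPM) and in myofibre-like nuclei of AHRmKO (22.8 CPM). Col13a1 was spread more widely, with 626 of 1613 UMIs in 166 nuclei of AHRfl/fl and 374 of 869 in 82 nuclei of AHRmKO. Colq was at 84.0 CPM in those 166 nuclei and 44.9 CPM in nuclei without Col13a1, and at 54.5 and 29.3 CPM in AHRmKO. Chrna1 was at 345 and 377 CPM and Musk at 429 and 419 CPM in AHRfl/fl, against 275 and 187 CPM and 345 and 202 CPM in AHRmKO, so Chrna1 and Musk were not higher with Col13a1 beyond counting error in AHRfl/fl. Etv5, a transcription factor of the same list, was at 28.3 CPM (19.7 to 39.3) and 4.60 CPM in AHRfl/fl and at 10.7 CPM (4.87 to 20.2) and 5.46 CPM in AHRmKO.

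Pairs of chains that assemble together were set side by side over 36 points, each a cluster in 1 library. Col4a1 and Col4a2, which share their start region as printed above, had a Pearson r of 0.96, and Col6a1 and Col6a2 of 0.94. Col4a5 and Col4a6 gave 0.73 and the scarce neighbours Col4a3 and Col4a4 0.28. Col3a1 and Col5a2, chains of mixed fibres, gave 0.82. The points share libraries, depth and free RNA. Col4a1 and Col4a2 overlap on opposite strands in only 22 bases at their starts, out of spans of 114 and 136 kb. Only reads in that stretch could be shared where counting ignores strand, which is not stated.

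Every member is accounted for by its UMIs over all nuclei. Only Col2a1 and Col9a2, cartilage chains, had fewer than 20 (11 and 7). Col6a4 and Col6a5 had 23 and 51. Over all nuclei, 2 of the other 42 were higher by log2 1 or more (Col7a1, at 3.03 and 14.5 CPM, and Col11a2, at 1.93 and 5.08 CPM) and 5 lower (Col1a1, Col3a1, Col4a4, Col10a1 and Col14a1), beside 3.86% and 13.5% of all genes. Col10a1, the hypertrophic cartilage chain, lies inside Nt5dc1 on the opposite strand. It had 213 UMIs against 13323 of that gene and was at 2.33 CPM in AHRfl/fl and 0.0686 CPM in AHRmKO, and its counts cannot be told apart from reads of Nt5dc1.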

How the data were processed

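Nuclei were counted with Cell Ranger 7.0.1 on mm10, per the submitters' processing notes, and the authors deposited raw UMI counts for every barcode. How introns and strand were counted is not given in the sources used here. Barcodes with 2000 or more UMIs were kept, with no other filter and doublets not removed, since the doublet caller was run as an alternative only. Nuclei of both libraries were clustered without collagens (scanpy 1.11.5, igraph 0.11.9, 2000 variable genes, 30 components, 15 neighbours, Leiden resolution 0.8). A cluster was named from a marker list when at least 3 markers were 2-fold above the median of the other clusters (10 CPM added). These names were rebuilt here, with thresholds set after the data were seen. UMIs were summed per class and library and divided by the class total (CPM). Ratios are log2 of AHRmKO over AHRfl/fl with 0.5 CPM added, and called means 20 or more UMIs over both libraries and a log2 ratio of at least 1 in size. Intervals are exact Poisson for levels, Clopper-Pearson for shares and conditional binomial for ratios, at 95%, and cover counting error only (scipy 1.17.1). With 1 library a group no test was made. Named genes had 100 or more UMIs in the class and were among the 6 highest of their group or called, and others are named to account for counts of calls, for pairs of chains or for clusters, after their values were seen. The members and gene lists were chosen with earlier results of these data known. The calculation of ratios and intervals was tested on simulated data. Alternatives covered the UMI minimum, mitochondrial share, doublets, clustering, depth, free RNA and scaling.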

Additional observations from a re-analysis of the deposited data

How the results depend on the processing

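No paired analysis was possible because each group has 1 library. Of 19 single-gene ratios, 6 changed direction under at least 1 of the 14 planned and 3 later alternatives, which were chosen after seeing the data. With the profile of at most 100 UMIs subtracted, Col1a1 was at 4.69, Col1a2 at 0.46, Col6a1 at 1.57 and Col6a3 at 3.32 in endothelial-like nuclei, and Col1a1 at 5.03 and Col14a1 at 0.30 in satellite cell-like nuclei. By construction, a subtracted level cannot go below 0. With the profile of 200 to under 500 UMIs, endothelial Col6a1 was at 0.38. The profile of 200 to under 500 UMIs also ended the calls of endothelial Col1a1 (-0.98), Col1a2 (-0.99) and Col6a3 (-0.38) and of satellite Col1a1 (-0.43), and 5 CPM added that of satellite Col14a1 (-0.88). Thinning ended those of endothelial Col6a1 (-0.89), Col6a3 (-0.74) and Col19a1 (-0.80), and endothelial Col6a3 was also below log2 1 with a minimum of 1000 UMIs, with libraries clustered separately and as a mean over nuclei. Col5a3 in adipocyte-like nuclei stayed between 1.37 and 1.64.

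For the sums, values are log2 ratios in fibroblast-like nuclei (fibrillar, basement membrane, other), then endothelial basement membrane, then all collagens in myofibre-like nuclei, then the fibroblast share of fibrillar UMIs. With a minimum of 1000 UMIs: fibrillar -0.50, basement membrane 0.031, other -0.29, endothelial 0.14, AHRfl/fl share 39.7%. With 4000: fibrillar -0.60, basement membrane 0.00063, other -0.34, endothelial 0.56, myofibre -1.41, AHRfl/fl share 33.6%. With at most 5% mitochondrial UMIs: basement membrane -0.13, shares 36.3% and 46.1%. Without Scrublet doublets: fibrillar -0.66, basement membrane -0.11, other -0.45, endothelial 0.075, myofibre -0.84, shares 42.6% and 44.9%. At Leiden resolution 0.4: fibrillar -0.71, other -0.48, AHRfl/fl share 33.9%. With libraries clustered separately: fibrillar -0.72, basement membrane -0.13, myofibre -1.05, AHRmKO share 42.2%. With collagens kept in clustering the AHRfl/fl share was 32.5%. Thinned to 2000 UMIs: fibrillar -0.78, basement membrane -0.24, other -0.63, endothelial -0.10, myofibre -0.91, shares 34.7% and 42.0%. With the profile of 200 to under 500 UMIs subtracted: fibrillar -0.70, myofibre -0.35, shares 44.0% and 48.9%. With that of at most 100: fibrillar -0.67, basement membrane -0.10, other -0.46, endothelial 0.36, myofibre 0.32, shares 46.1% and 47.5%. Without mitochondrial genes and Gm42418: fibrillar -0.69, basement membrane -0.12, other -0.45, endothelial 0.35, myofibre -0.91. As means over nuclei: fibrillar -0.79, basement membrane -0.23, other -0.63, endothelial -0.15. With the mixed clusters: fibrillar -0.38, basement membrane 0.17, other -0.16, shares 45.7% and 44.7%. Without fibroblast-like nuclei rich in macrophage markers the AHRfl/fl share was 32.0%. With immature nuclei added, myofibre was -0.58. The cause of these changes was not tested.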
